A study of Mus musculus with 12 samples.

Results

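The genes described here are 32 reported targets of the miR-15/16 microRNA family, which shares its seed with miR-322 and, but for 1 base, with miR-503. They were chosen as the rows of the gene count table whose gene name was on a list of such targets, and all 32 were found among the 54532 genes of the table. The rule uses the name alone, and the list was drawn up with earlier results of these data known. RNA had been sequenced from liver and inguinal white fat (white adipose tissue, the storage fat of the groin) of male mice that were 52 weeks old and had been fasted for 12 hours. The 4 groups of 3 libraries were KO fat, from mice with a global deletion of miR-322, miR-503 and miR-351, WT fat, KO liver and WT liver, where WT mice were labelled wild type. A global deletion acts in every cell type, so no group isolates an effect within hepatocytes or fat cells. It is not stated whether the libraries of a group came from separate animals or whether fat and liver came from the same ones, so p-values measure the spread between these libraries.

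MicroRNAs guide a silencing complex to messenger RNAs, mostly by pairing of the seed, the short stretch near the 5′ end of the microRNA, with sites in the 3′ UTR, and lower the stability or the translation of the target. The miR-15/16 family is best known for holding back cell division through D-type and E-type cyclins, CDK6 and CDC25A, and for repressing BCL2. Other reported targets act in TGF-beta, VEGF, WNT and mTOR signalling. RNA-seq measures the messenger RNA and not the protein, so repression of translation alone is not seen in it.

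The deleted cluster lies on the X chromosome. Reads over Mir322 numbered 0 in all 6 KO libraries, against 12, 10 and 15 in WT fat and 2, 1 and 0 in WT liver. Reads over Mir503 numbered 0 in all 6 KO libraries, against 17, 21 and 10 in WT fat and 4, 4 and 8 in WT liver. Mir351, which the label also lists as deleted, had reads in every KO library, 38, 60 and 48 in KO fat against 13, 11 and 9 in WT fat, and 13, 17 and 11 in KO liver against 5, 2 and 2 in WT liver. These are reads of longer RNAs across the hairpin genes and not counts of mature microRNAs. The overlapping long RNA gene C430049B03Rik had 467, 302 and 348 reads in KO fat against 11, 33 and 12 in WT fat, and 68, 69 and 67 in KO liver against 3, 1 and 2 in WT liver. KO stands below for libraries labelled as deleted, of which the Mir322 and Mir503 counts match the label and the Mir351 counts do not. The genes of the other family members, Mir15a, Mir15b, Mir16-1, Mir16-2, Mir195a, Mir195b, Mir497 and Mir497b, had 0 reads in all 12 libraries, so their level could not be read from these libraries. Of the genes that host some of them, Smc4 (for Mir15b and Mir16-2) had 601, 404 and 486 reads in KO fat against 524, 543 and 803 in WT fat, and 204, 174 and 199 in KO liver against 127, 148 and 157 in WT liver, without overlap in liver. Dleu2 (for Mir15a and Mir16-1) had 220, 136 and 157 reads in KO fat against 212, 163 and 230 in WT fat, and 183, 171 and 159 in KO liver against 157, 161 and 160 in WT liver. These raw reads of Dleu2 overlap in liver. In library-scaled read counts (CPM, described below) Dleu2 averaged 15.5 in KO liver and 13.9 in WT liver, without overlap. On that scale Smc4 averaged 17.4 in KO liver and 12.6 in WT liver, so both host genes lay higher in KO liver. Host gene reads are not counts of the microRNAs either.

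The mature sequences of the 3 microRNAs that the label lists as deleted and of other family members are from RefSeq (GRCm38.p6), with the seed, bases 2 to 8, in capitals.
miR-322-5p: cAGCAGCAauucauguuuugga
miR-503-5p: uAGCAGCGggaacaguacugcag
miR-351-5p: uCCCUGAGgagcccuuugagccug
miR-15a-5p: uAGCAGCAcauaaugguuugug
miR-15b-5p: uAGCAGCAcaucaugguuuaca
miR-16-5p: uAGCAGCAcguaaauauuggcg
miR-195a-5p: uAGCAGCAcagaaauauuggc
miR-497a-5p: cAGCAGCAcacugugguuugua
The seed of miR-322 is the same as that of miR-15a, miR-15b, miR-16, miR-195a and miR-497a, which the deletion leaves in the genome. The seed of miR-503 differs from it in its last base, and the seed of miR-351 is unrelated.

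Matches to these seeds were counted on the sense strand of the longest annotated 3′ UTR of each gene (GENCODE M21, GRCm38). A match was the reverse complement of the seed, TGCTGCT for miR-322, CGCTGCT for miR-503 and CTCAGGG for miR-351, and was called an 8mer where an A followed it. Of the 32 targets, 24 held at least 1 miR-322 match, 34 matches in all, and 15 held an 8mer. Lrp6, Cpeb2 and Cdk6 held 3 each, of which 2 in Cdk6 overlap within a run of repeated TGC. A miR-503 match was in the 3′ UTR of 5 targets, Ccnd1 with 2 and Ccnd2, Rictor, Smurf2 and Hmga2 with 1 each. Of the targets tested in liver 79.3% held a miR-322 match, against 24.7% of the 11943 protein-coding genes tested there with a 3′ UTR. Such a share says only that the list was drawn from reported targets. Anln, Ccnf, Plag1, Rps6kb1 and Zyx held no match to any of the 3 seeds there, and Rb1 held only a miR-351 match. The shortest annotated 3′ UTR of Zyx, which is another stretch, held 3 miR-322 matches.

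Matches of the D-type cyclins and of the other members whose genotype effects differed between tissues at an unadjusted p under 0.05 are printed with the match in capitals within 30 bases of the 3′ UTR, read 5′ to 3′ on the strand of the gene.
Ccnd1, miR-503 8mer, chr7:144930870-144930877, minus strand: tcctctcatggCGCTGCTAccgatgactcc
Ccnd1, miR-503 8mer, chr7:144930793-144930800, minus strand: cacgttgttttCGCTGCTAttggagggtca
Ccnd1, miR-322 match, chr7:144930395-144930401, minus strand: gcatgccaccaTGCTGCTggcccgggggga
Ccnd2, miR-503 8mer, chr6:127128611-127128618, minus strand: ttattatttttCGCTGCTAagaagctaaga
Ccnd2, miR-322 8mer, chr6:127128541-127128548, minus strand: gtttcacggtgTGCTGCTAttttagaaaca
Ccnd3, miR-322 match, chr17:47599294-47599300, plus strand: gttgctttgctTGCTGCTtagcttctgtga
Smurf2, miR-503 match, chr11:106821045-106821051, minus strand: tgctaaggagaCGCTGCTttcagtggtttt
Rictor, miR-322 match, chr15:6797819-6797825, plus strand: gggctctaagcTGCTGCTcacattacagca
Rictor, miR-503 8mer, chr15:6800084-6800091, plus strand: ttttagtaataCGCTGCTAcatttttggag
Kdr, miR-322 match, chr5:75934361-75934367, minus strand: cacgagagaggTGCTGCTtagattttcaag
Zfhx4, miR-322 8mer, chr3:5414514-5414521, plus strand: ttatcaacattTGCTGCTAttgtgttaaca
Ccnd1, Ccnd2 and Rictor each hold matches to both of these seeds.

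No reported target passed the threshold in either tissue, and in neither tissue did most targets lie higher in KO than in WT. In bulk tissue, fewer cells of a type and less RNA per cell cannot be told apart. Genotype was tested in each tissue with edgeR's quasi-likelihood F test, with Benjamini-Hochberg adjustment over all genes tested and a threshold of 0.05. In fat 0 of the 31 targets tested were called, where 0% of all 15919 genes tested were called. In liver 0 of 29 were called, where 0.155% of all 13529 genes tested were called. At an unadjusted p under 0.05 there were 4 targets in fat (12.9%, against 7.64% of all genes tested) and 2 in liver (6.9%, against 12.2%). Without the 2 fat libraries highest in Alb, library 1 of each genotype, 0 targets were called and 5 had an unadjusted p under 0.05. With DESeq2 in place of edgeR the called targets numbered 0 in fat and 1 in liver, Ccnd1. The log2 fold change, KO minus WT, was above 0 for 11 and below 0 for 20 targets in fat (35.5% above, against 49.6% of all genes tested), with a median of -0.15 against 0.00 over all genes tested. In liver it was above 0 for 14 and below 0 for 15 targets (48.3% above, against 49.9% of all genes tested), with a median of -0.05 against 0.00 over all genes tested.

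Markers of some other cell types lay mostly on the same side of 0 in these comparisons, with none called (edgeR). In fat 10 of 10 T and NK cell markers and 9 of 10 B cell markers had log2 fold changes below 0 (medians -0.90 and -0.71), and 4 of 4 epithelial and 9 of 9 hepatocyte markers tested had values above 0 (medians 0.61 and 0.54). The T and NK cell markers summed to 33.8, 5.54 and 22.5 CPM (library-scaled read counts) in KO fat, against 13.5, 22.98 and 77.2 CPM in WT fat. The B cell markers summed to 1074, 488 and 935 CPM in KO fat, against 197, 819 and 1048 CPM in WT fat, so that the highest sum was in a KO library although the median was below 0. The epithelial markers, of which 1 of 8 had 0 counts in every fat library, summed to 76.9 to 97.1 CPM in KO fat, against 48.5 to 64.7 CPM in WT fat, without overlap. In liver 9 of 12 endothelial markers lay below 0 (median -0.20) and 5 of 5 epithelial markers tested lay above (median 0.29). Also above 0 in liver were 4 of 4 B cell markers tested (median 0.38) and 9 of 10 macrophage markers (median 0.11). The summed CPM of the B cell markers and of the macrophage markers overlapped between the genotypes in liver. The part of these cell types in the values of the targets was not tested.

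Chek1, Plag1 and Hmga2 in liver and Hmga2 in fat were too low to be tested. Levels are given as CPM, the usual library-scaled read count, after TMM scaling, a scaling that makes the bulk of genes level between libraries. Each library held between 14531438 and 15971178 counts, so that 3 counts in a library amount to 0.140 to 0.277 CPM. Tissue markers matched the labels, with Adipoq between 1184 and 1833 CPM in fat and at most 0.185 CPM in liver, and Alb between 103128 and 123129 CPM in liver. Alb was also found in fat at 1479, 176 and 545 CPM in KO libraries and 1376, 94.8 and 57.6 CPM in WT libraries. Library 3 of WT fat stood apart in 20 proliferation markers, whose sum was 119 CPM there and between 36.2 and 57.9 CPM in the other 5 fat libraries.

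**Figure D1:**
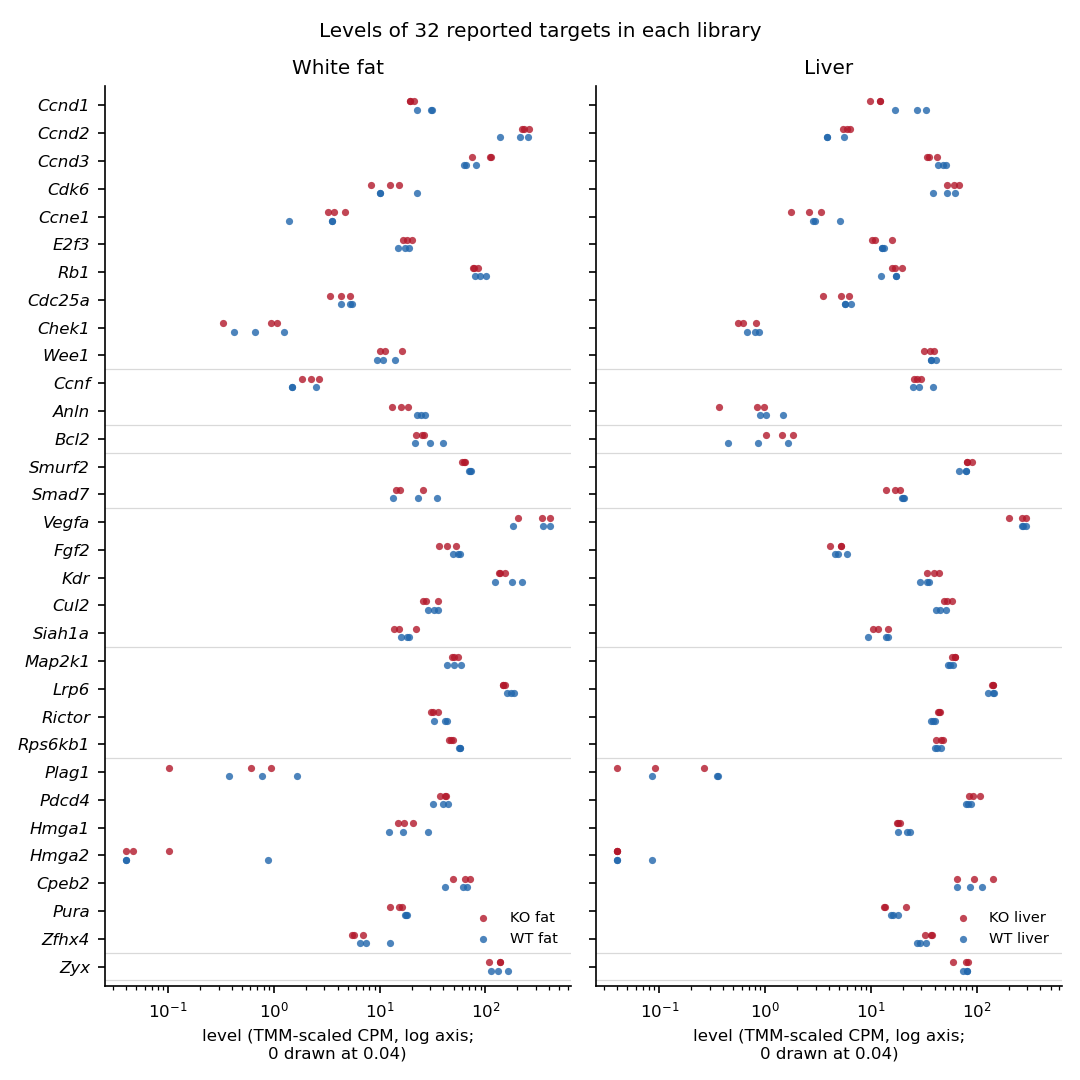
Level of each of the 32 targets in every library, in TMM-scaled CPM on a log axis (0 drawn at 0.04), with fat on the left and liver on the right, KO in red above WT in blue, and lines between the functional groups. KO and WT points overlap for most genes, and the tissues differ more than the genotypes do for genes such as Ccnd2, Bcl2, Anln and Ccnf.

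**Figure D2:**
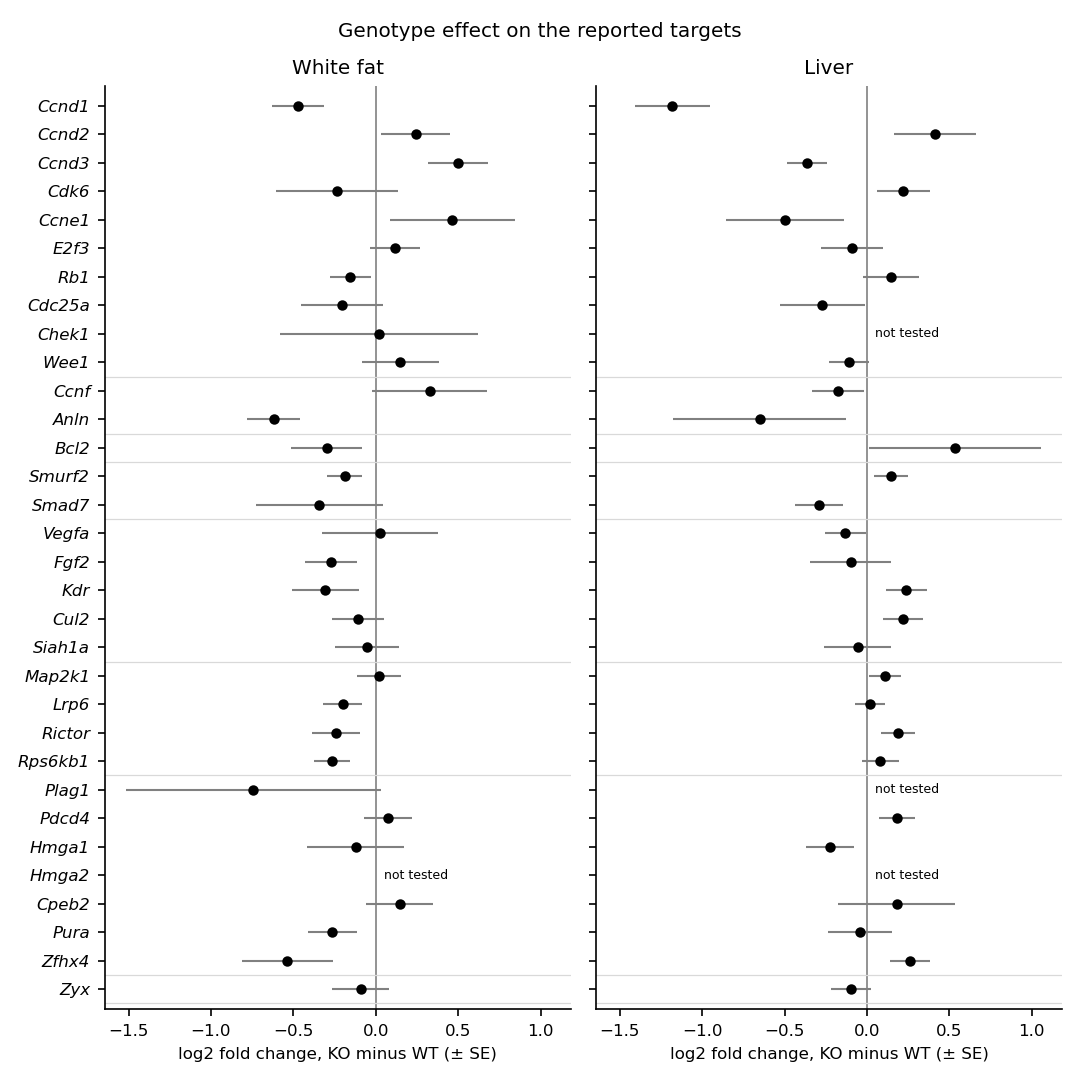
Log2 fold change, KO minus WT, of each target with its standard error (edgeR), fat on the left and liver on the right. Ccnd1 in liver, at -1.18, lies farthest from 0, and points fall on both sides of 0 within most functional groups.

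The G1/S group holds cyclins, kinases and checkpoint genes, most of which promote or restrain the step from growth into DNA synthesis. Of its 10 genes, 6 lay above and 4 below 0 in fat, and 3 above and 6 below in liver, with none called in either. Ccnd1 (cyclin D1, chr7:144929931-144939925, minus strand) activates CDK4 and CDK6 in response to growth signals. It had 12.3, 9.84 and 12.3 CPM in KO livers, against 27.1, 33.2 and 17.02 CPM in WT livers. All 3 KO livers lay below all 3 WT livers, and the WT livers differed among themselves by more than the KO livers did. The log2 fold change was -1.18 ± 0.23 (SE), with a 95% interval of -1.68 to -0.68, and edgeR's adjusted p was 0.0897. Over the 15 alternatives tried this p lay between 3.15e-09 and 0.296. It was 0.000226 with DESeq2, 3.15e-09 with no filter on low counts and 0.0151 without WT liver library 3, the lowest of the WT livers, where the log2 fold change was -1.41. In fat Ccnd1 had 19.5, 19.4 and 21.1 CPM in KO libraries, against 30.3, 31.1 and 22.4 CPM in WT libraries, again without overlap and again with KO below. The log2 fold change there was -0.47 ± 0.16, with an adjusted p of 0.649 (edgeR).

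Ccnd2 (cyclin D2, chr6:127125162-127152193, minus strand), the other cyclin with matches to both seeds, had 220.3, 231 and 261 CPM in KO fat, against 138, 213 and 255 CPM in WT fat. In liver it had 5.91, 5.46 and 6.37 CPM in KO libraries, against 3.83, 5.54 and 3.85 CPM in WT libraries. The groups overlapped in both tissues, with log2 fold changes of 0.24 ± 0.21 in fat and 0.41 ± 0.25 in liver and adjusted p of 0.771 and 0.527 (edgeR). Ccnd3 (cyclin D3, chr17:47505051-47599691, plus strand) had 73.9, 112 and 109 CPM in KO fat, against 65.2, 81.3 and 63.3 CPM in WT fat, and KO library 1 lay within the WT range. Its log2 fold change in fat was 0.50 ± 0.18, with an adjusted p of 0.649 (edgeR). In liver it had 42.5, 33.7 and 35.1 CPM in KO libraries, against 43.1, 47.5 and 51.6 CPM in WT libraries. All KO livers lay below all WT livers, by a smaller margin than for Ccnd1, with a log2 fold change of -0.36 ± 0.12 and an adjusted p of 0.279 (edgeR). The 3 D-type cyclins thus had different signs within a tissue, Ccnd1 below 0 and Ccnd2 above 0 in both.

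Of the other G1/S genes, Ccne1 (cyclin E1), the partner of CDK2, averaged 3.89 ± 0.773 CPM in KO fat and 2.84 ± 1.25 CPM in WT fat (SD, n = 3 each). It averaged 2.57 ± 0.803 CPM in KO livers and 3.61 ± 1.26 CPM in WT livers. Its log2 fold changes were 0.46 ± 0.38 in fat and -0.50 ± 0.36 in liver, and the groups overlapped in both tissues. Cdk6, the kinase that D-type cyclins activate, had 15.3, 8.22 and 12.5 CPM in KO fat against 10.01, 10.1 and 22.6 CPM in WT fat, and 52.4, 60.7 and 67.6 CPM in KO livers against 38.96, 52.9 and 62.2 CPM in WT livers. WT fat library 3 was the highest fat library for Cdk6, and the groups overlapped in both tissues. Rb1, the retinoblastoma protein that these kinases inactivate, averaged 80.1 ± 4.25 CPM in KO fat and 89.7 ± 10.9 CPM in WT fat, and 17.4 ± 1.89 CPM in KO livers and 15.6 ± 2.85 CPM in WT livers. E2f3, a transcription factor that Rb1 restrains, averaged 18.4 ± 1.81 CPM in KO fat and 17.1 ± 2.02 CPM in WT fat, and 12.3 ± 2.99 CPM in KO livers and 12.98 ± 0.327 CPM in WT livers. Cdc25a, a phosphatase that activates CDKs, and Wee1, a kinase that inhibits them, overlapped between genotypes in both tissues. Their log2 fold changes were -0.20 ± 0.25 and 0.15 ± 0.23 in fat and -0.27 ± 0.26 and -0.11 ± 0.12 in liver. Chek1, the DNA damage checkpoint kinase, stayed at or under 1.24 CPM in every library, with 47 counts over KO fat and 47 over WT fat, and 22 over KO livers and 27 over WT livers.

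The 2 genes of the G2/M and cytokinesis group have no match to the 3 seeds. Anln (anillin, chr9:22332012-22389188, minus strand), a scaffold of the contractile ring in cytokinesis, had 16.1, 18.4 and 13.2 CPM in KO fat, against 22.5, 24.5 and 26.7 CPM in WT fat. All KO libraries lay below all WT libraries. The log2 fold change was -0.62 ± 0.16, with a 95% interval of -0.98 to -0.26 and an adjusted p of 0.649 (edgeR), the smallest unadjusted p of the targets in fat at 0.00394. Of 20 proliferation markers in fat, 19 had a log2 fold change below 0, and none was called or had an unadjusted p under 0.05 (edgeR). Their sums were 57.9, 48.2 and 48.0 CPM in KO fat, against 36.2, 43.8 and 119 CPM in WT fat. All KO sums thus lay above those of WT libraries 1 and 2 and below that of WT library 3. The log2 fold change of Anln without WT fat library 3 was -0.57. The part of dividing cells in the Anln values was not tested. In liver Anln was near the limit of counting, with 24 counts over KO livers and 39 over WT livers. Ccnf (cyclin F), a substrate-binding part of a ubiquitin ligase, averaged 2.26 ± 0.433 CPM in KO fat and 1.82 ± 0.571 CPM in WT fat, and 27.4 ± 1.93 CPM in KO livers and 30.7 ± 7.02 CPM in WT livers, with overlap in both tissues.

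Bcl2, which blocks apoptosis at mitochondria and is a textbook target of the family, had 26.2, 25.3 and 21.9 CPM in KO fat, against 39.4, 29.6 and 21.4 CPM in WT fat. WT library 1 was the highest and WT library 3 lay below all KO libraries. The log2 fold change in fat was -0.30 ± 0.22, with an adjusted p of 0.739 (edgeR). In liver it had 48 counts over KO libraries and 34 over WT libraries, with a log2 fold change of 0.53 ± 0.52 and a 95% interval of -0.59 to 1.66, a range too wide at this depth to tell a rise from a drop.

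**Figure D3:**
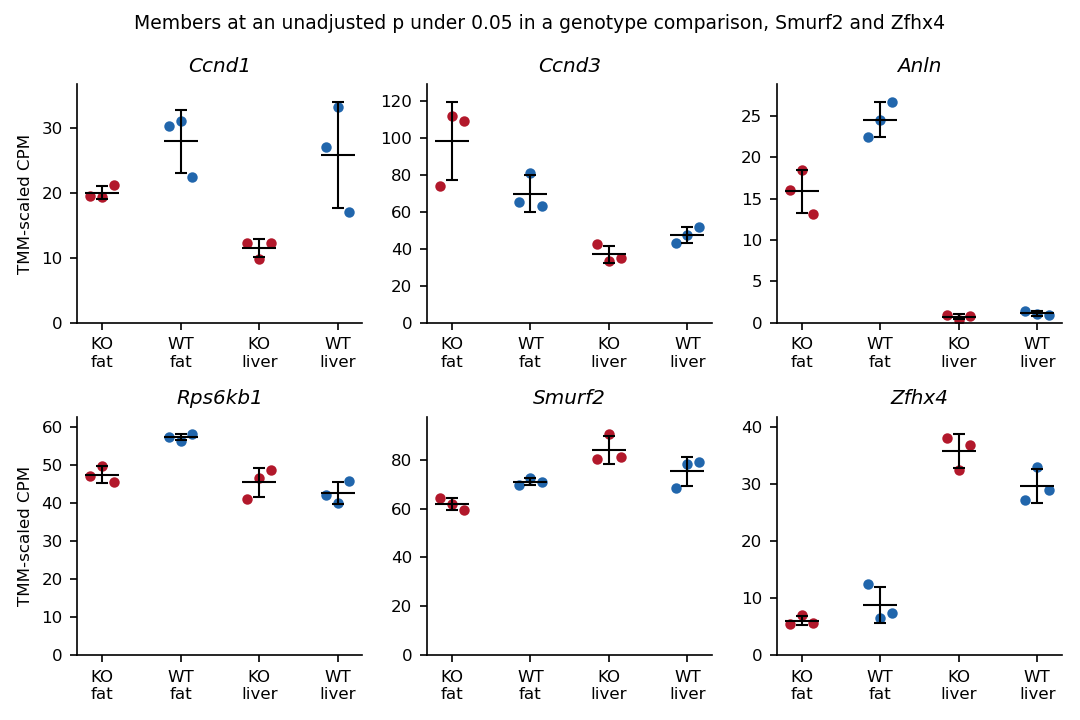
Level in TMM-scaled CPM in each library (points) with the mean and SD (bars, n = 3) for the 4 targets at an unadjusted p under 0.05 in a tissue and for Smurf2 and Zfhx4, whose effects differed between tissues at that level. Without overlap, Ccnd1 lies lower in KO in both tissues and Ccnd3 lower in KO liver. In fat the mean of Ccnd3 is higher in KO, and the groups overlap.

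Smurf2 (chr11:106820066-106920715, minus strand), a ubiquitin ligase that acts on TGF-beta receptors and SMAD proteins, had 64.5, 62.03 and 59.4 CPM in KO fat, against 69.7, 72.4 and 70.9 CPM in WT fat. All KO fat libraries lay below all WT fat libraries, with a log2 fold change of -0.19 ± 0.11 and an adjusted p of 0.677 (edgeR). In liver the order was the other way, with 80.2, 90.4 and 81.3 CPM in KO libraries against 68.5, 78.3 and 79.2 CPM in WT libraries and no overlap, and a log2 fold change of 0.15 ± 0.10 with an adjusted p of 0.586 (edgeR). Smad7, the inhibitory SMAD to which Smurf2 binds, had 18.7, 14.03 and 16.7 CPM in KO livers against 20.4, 19.7 and 19.98 CPM in WT livers, without overlap. In fat its libraries spread widely, at 14.4, 15.7 and 25.9 CPM in KO against 34.8, 22.9 and 13.5 CPM in WT. Its log2 fold changes were -0.34 ± 0.39 in fat and -0.29 ± 0.15 in liver, with adjusted p of 0.828 and 0.4499 (edgeR).

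Among the ligands of blood vessel growth, Vegfa had 339.8, 403 and 204 CPM in KO fat against 349, 403 and 183 CPM in WT fat, the lowest library of each genotype being library 3. It had 295, 267 and 204 CPM in KO livers against 269.7, 291 and 272 CPM in WT livers, and was the highest of the 32 targets per kilobase of gene length, at 73.7 CPM per kilobase in KO fat, 72.8 in WT fat, 59.6 in KO liver and 64.8 in WT liver. The effects on Vegfa were 0.02 ± 0.35 in fat and -0.13 ± 0.13 in liver on the log2 scale. Fgf2, a growth factor for endothelial and mesenchymal cells, averaged 44.2 ± 8.31 CPM in KO fat and 53.6 ± 4.33 CPM in WT fat, and 4.84 ± 0.599 CPM in KO livers and 5.14 ± 0.731 CPM in WT livers. Kdr, the main VEGF receptor of endothelial cells, had 134, 136 and 152 CPM in KO fat against 222, 178 and 124 CPM in WT fat. The groups overlapped. WT fat library 1 was the highest for Kdr and also for the sum of 12 endothelial markers, which had 990, 1165 and 1338 CPM in KO fat against 1540, 1286 and 1037 CPM in WT fat. In liver Kdr had 43.7, 34.2 and 39.1 CPM in KO libraries against 35.1, 33.98 and 29.3 CPM in WT libraries, while the endothelial sum was 235 to 257 CPM in KO livers against 277 to 291 CPM in WT livers. The part of endothelial cells in the Kdr values was not tested.

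Cul2, a scaffold of the ubiquitin ligase with which VHL marks hypoxia-inducible factors, averaged 29.7 ± 5.18 CPM in KO fat and 32.2 ± 3.37 CPM in WT fat, and 53.4 ± 5.11 CPM in KO livers and 45.7 ± 5.45 CPM in WT livers. Siah1a, a ubiquitin ligase that acts on the enzymes that sense oxygen, averaged 16.9 ± 4.34 CPM in KO fat and 17.6 ± 1.70 CPM in WT fat, and 12.2 ± 2.01 CPM in KO livers and 12.6 ± 2.86 CPM in WT livers. Neither had separate groups in a tissue, and Siah1a has a close paralog with which it may share reads.

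All 4 genes of growth factor, WNT and mTOR signalling had log2 fold changes above 0 in liver, between 0.02 and 0.19, and 3 of 4 had values below 0 in fat. With the trend on GC share and length removed, a step described below, the liver values were -0.05 for Lrp6, -0.09 for Rps6kb1 and 0.06 for Rictor, so the shared direction was lost. Rps6kb1 (S6 kinase 1, chr11:86498871-86544805, minus strand), which acts below mTOR complex 1 in the control of protein synthesis, had 47.02, 49.7 and 45.3 CPM in KO fat, against 57.2, 56.3 and 57.9 CPM in WT fat. The WT libraries were nearly level and all KO libraries lay below them. The log2 fold change was -0.26 ± 0.11, with an adjusted p of 0.649 (edgeR), but it was 0.0011 once that trend had been removed. In liver Rps6kb1 averaged 45.3 ± 3.87 CPM in KO libraries and 42.6 ± 2.87 CPM in WT libraries. Rictor, the defining subunit of mTOR complex 2, had 44.3, 43.4 and 45.2 CPM in KO livers against 40.3, 38.4 and 37.4 CPM in WT livers, without overlap, and a log2 fold change of 0.19 ± 0.10. In fat it had 35.5, 30.7 and 31.9 CPM in KO libraries against 41.4, 32.3 and 42.9 CPM in WT libraries, and the groups overlapped. Lrp6, a WNT co-receptor, had 154, 148 and 147 CPM in KO fat against 159, 175 and 184 CPM in WT fat, without overlap, and a log2 fold change of -0.20 ± 0.12. In liver Lrp6 averaged 142 ± 2.83 CPM in KO and 139 ± 9.15 CPM in WT libraries. Map2k1 (MEK1), a kinase between RAF and ERK, averaged 51.3 ± 3.103 CPM in KO fat and 50.9 ± 7.67 CPM in WT fat, and 61.3 ± 2.01 CPM in KO livers and 56.4 ± 3.201 CPM in WT livers. The adjusted p of Rictor, Lrp6 and Map2k1 lay between 0.482 and 0.976 over both tissues (edgeR).

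Among regulators of transcription, translation and chromatin, Zfhx4 (chr3:5218526-5415857, plus strand), a zinc finger homeobox factor, had 5.496, 6.98 and 5.68 CPM in KO fat against 12.4, 6.56 and 7.43 CPM in WT fat. WT library 1 was the highest and WT library 2 lay within the KO range, and the log2 fold change was -0.54 ± 0.27 with an adjusted p of 0.668 (edgeR). In liver Zfhx4 had 38.1, 32.5 and 36.8 CPM in KO libraries against 27.2, 32.96 and 28.9 CPM in WT libraries, with a log2 fold change of 0.26 ± 0.12 and an adjusted p of 0.413 (edgeR). Pdcd4, which inhibits translation initiation, averaged 40.4 ± 2.54 CPM in KO fat and 38.6 ± 6.33 CPM in WT fat, and 95.1 ± 11.5 CPM in KO livers and 83.4 ± 4.45 CPM in WT livers. Cpeb2, which binds 3′ UTRs and controls translation, varied more within groups than between them, at 94.7, 65.7 and 142 CPM in KO livers against 86.98, 65.7 and 113 CPM in WT livers, and averaged 61.9 ± 11.3 CPM in KO fat and 56.4 ± 13.3 CPM in WT fat. Pura, a binder of single-stranded DNA and RNA, had 15.3, 16.1 and 12.5 CPM in KO fat against 17.6, 17.4 and 18.05 CPM in WT fat, without overlap, and averaged 16.1 ± 4.65 CPM in KO livers and 16.5 ± 1.25 CPM in WT livers. Its log2 fold change in fat was -0.26 ± 0.15, with an adjusted p of 0.676 (edgeR).

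Hmga1, an architectural chromatin protein for which reads may be shared with near copies, averaged 17.5 ± 2.89 CPM in KO fat and 19.1 ± 8.32 CPM in WT fat, and 18.2 ± 0.699 CPM in KO livers and 21.2 ± 2.91 CPM in WT livers. Its fetal relative Hmga2 had 3 counts over KO fat and 17 over WT fat, and 0 over KO livers and 1 over WT livers. All 17 were in WT fat library 3. Plag1, a zinc finger factor of fetal tissues, had 34 counts over KO fat and 58 over WT fat, and 4 over KO livers and 9 over WT livers. Zyx (zyxin), a focal adhesion protein, averaged 127 ± 17.3 CPM in KO fat and 136 ± 25.6 CPM in WT fat, and 73.8 ± 12.1 CPM in KO livers and 78.5 ± 4.39 CPM in WT livers.

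Counted together, the libraries of the 2 genotypes did not overlap for 6 of 31 targets in fat (19.4%), against 14.5% of all genes tested. All 6, Ccnd1, Anln, Smurf2, Lrp6, Rps6kb1 and Pura, were lower in KO, where 7.39% of all genes tested were lower and 7.15% higher without overlap. In liver they did not overlap for 5 of 29 (17.2%), against 19% of all genes tested, with Smurf2 and Rictor higher and Ccnd1, Ccnd3 and Smad7 lower in KO, where 10.2% of all genes tested were higher and 8.83% lower without overlap.

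Fold changes ran with base composition in both tissues, in opposite directions. Across the genes tested, Spearman's rho of log2 fold change with the GC share of the transcript was 0.475 in fat and -0.435 in liver. This is a description across genes, which share the libraries. The median GC share of the 32 targets was 46.1%, against 49.5% of genes tested in fat and 49.4% in liver. With the trend on GC share and length removed, 13 targets lay above and 18 below 0 in fat, with a median of -0.05, and 14 above and 15 below in liver, again with a median of -0.05. No target was called in either tissue after that step. Ccnd1 kept values of -0.52 in fat and -1.14 in liver, Ccnd3 had 0.29 in fat and -0.21 in liver, and Anln had -0.51 in fat. The other targets without overlap came closer to 0, with -0.06 for Lrp6, -0.09 for Pura, -0.09 for Smurf2 and 0.0011 for Rps6kb1 in fat, and -0.13 for Smad7, 0.06 for Rictor and 0.09 for Smurf2 in liver. The sign differed from that without this step for 6 of 31 targets in fat and 4 of 29 in liver.

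Effects lay on both sides of 0 at every number of seed matches. In fat the 24 targets with a miR-322 match had a median log2 fold change of -0.11, and the 7 without had -0.19. Over all protein-coding genes tested in fat the medians were -0.03 for the 3365 with a match and 0.01 for the 10400 without. In liver the 23 targets with a match had a median of -0.05 and the 6 without -0.01, and over all protein-coding genes tested the medians were 0.02 with and 0.00 without. With 8mers alone, 8 of 15 targets in fat and 6 of 14 in liver lay above 0. Of all protein-coding genes tested with an 8mer, 260 of 623 in fat and 320 of 558 in liver lay above 0. Medians by match were not computed with the GC and length trend removed. Of the 4 tested targets with a miR-503 match, 1 lay above 0 in fat (Ccnd2) and 3 in liver (Ccnd2, Rictor and Smurf2), and Ccnd1 lay below in both. The longest 3′ UTR in the annotation need not be the one used in these tissues.

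**Figure D4:**
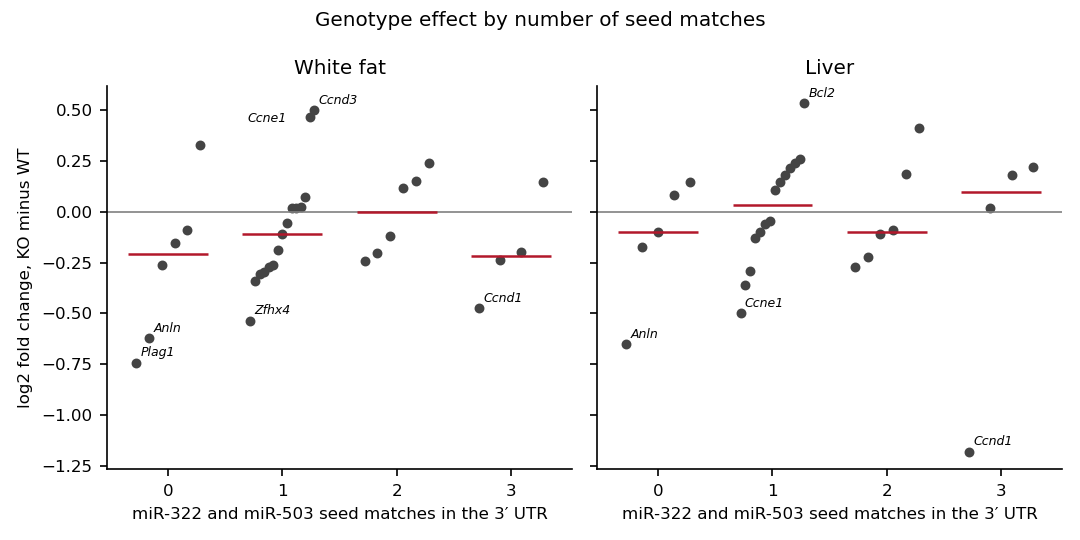
Log2 fold change, KO minus WT, of each tested target (points) by the number of miR-322 and miR-503 seed matches in its 3′ UTR, with red bars at the medians, fat on the left and liver on the right. Targets with 1 or more matches lie on both sides of 0, and Ccnd1, with 3 matches, is the lowest point in liver.

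Some targets had effects of opposite sign in the tissues. The difference of the genotype effects, the effect in fat minus that in liver, was tested in 1 edgeR fit of all 12 libraries, which are the same libraries as in the tests within tissues. Of 31 targets 0 were called (0 with DESeq2 as well), where 0% of all 16857 genes tested were called, and 7 had an unadjusted p under 0.05 (22.6%, against 13.4% of all genes tested). Ccnd3 had a difference of 0.84 ± 0.23 on the log2 scale, with a 95% interval of 0.35 to 1.34 and an adjusted p of 0.218 (edgeR). Ccnd1, with the same sign in both tissues, had 0.69 ± 0.30, its effect being the more negative in liver. The other 5 were negative, Zfhx4 at -0.81 ± 0.29, Kdr at -0.56 ± 0.25, Rictor at -0.44 ± 0.17, Rps6kb1 at -0.36 ± 0.14 and Smurf2 at -0.35 ± 0.14. Their adjusted p lay between 0.275 and 0.353. With the GC and length trend removed 1 of the 31 had an unadjusted p under 0.05, against 6.79% of all genes tested. After that step 20 targets lay above and 11 below 0, against 12 above and 19 below before it. Without KO fat library 3 or WT fat library 1, 2 targets had an unadjusted p under 0.05. With the trend removed the difference was 0.53 for Ccnd3, 0.63 for Ccnd1, -0.54 for Zfhx4, -0.52 for Kdr, -0.05 for Rictor, 0.10 for Rps6kb1 and -0.19 for Smurf2. Without WT fat library 1 it was -0.42 for Zfhx4 and -0.29 for Kdr.

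More targets were called between fat and liver than between the genotypes. In KO libraries 18 of 29 targets tested differed between fat and liver (62.1%, against 69.4% of all 15648 genes tested), 10 higher and 8 lower in fat, where 36.8% of all genes were called higher and 32.6% lower. In WT libraries, a fit that shares no library with the first, 16 of 30 were called (53.3%, against 70.9% of all 15715 genes tested), 9 higher and 7 lower, where 37.3% of all genes were called higher and 33.5% lower. The 14 called in both, 77.8% of the KO calls and 87.5% of the WT calls, had the same direction in both genotypes. This split depends on the scaling, because TMM factors lay between 1.29 and 1.35 in fat and between 0.731 and 0.777 in liver. With library totals alone the median log2 difference of all genes tested was 0.88 in both genotypes, against 0.05 with TMM. The called targets were then 21 higher and 5 lower in KO and 20 and 4 in WT. Of all genes tested, 12280 of 15648 were called in KO and 12235 of 15715 in WT under that setting. With the GC and length trend removed the called targets numbered 10 higher and 13 lower in KO and 7 and 12 in WT. The median log2 difference of all genes tested was then -0.16 in both genotypes. The share of all genes tested above 0 was 45.2% in KO and 45.4% in WT, against 51.5% and 51.4% before that step. Of all genes tested, 11520 were called in KO and 11342 in WT after that step.

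Higher in fat were Ccnd2, with a log2 difference, fat minus liver, of 5.32 ± 0.15 in KO libraries and 5.49 ± 0.29 in WT libraries, Bcl2 (4.07 ± 0.24 in KO and 4.90 ± 0.41 in WT) and Anln (4.44 ± 0.32 in KO and 4.41 ± 0.23 in WT). Fgf2, Rb1 and Kdr followed, with 3.19 ± 0.19, 2.20 ± 0.13 and 1.85 ± 0.13 in KO libraries and 3.36 ± 0.15, 2.50 ± 0.17 and 2.39 ± 0.21 in WT libraries. All 6 had an adjusted p between 3.42e-09 and 2.00e-05 over both genotypes (edgeR), and their fat libraries lay above all liver libraries of the same genotype. Zyx (0.79 ± 0.15 in KO and 0.78 ± 0.15 in WT) and Ccnd3 (1.41 ± 0.17 in KO and 0.54 ± 0.13 in WT) were also called higher in both. With the GC and length trend removed Ccnd3 had 0.75 in KO and 0.25 in WT, where its call was lost (adjusted p 0.107, edgeR), and Zyx had 0.26 in KO. Cell makeup differed along with these values. In WT, 11 of 12 endothelial and 9 of 10 fibroblast and stellate markers were called higher in fat than in liver. So were 7 of 10 macrophage markers, against 37.3% of all genes tested. Called lower in fat were 1 fibroblast and stellate marker, 2 macrophage markers and 4 of 6 epithelial markers tested, while 2 epithelial markers were called higher. The part of cell makeup in the target levels was not tested.

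Lower in fat were Ccnf, with -3.59 ± 0.20 in KO libraries and -4.10 ± 0.27 in WT libraries, Cdk6 (-2.33 ± 0.22 in KO and -1.87 ± 0.37 in WT) and Wee1 (-1.51 ± 0.20 in KO and -1.77 ± 0.17 in WT). Zfhx4 (-2.56 ± 0.16 in KO and -1.77 ± 0.25 in WT), Pdcd4 (-1.24 ± 0.13 in KO and -1.13 ± 0.14 in WT) and Cul2 (-0.85 ± 0.15 in KO and -0.52 ± 0.13 in WT) were called lower in both genotypes as well, Cul2 with the opposite sign in WT and no call in KO, and Pdcd4 with no call in WT, under library totals alone. The D-type cyclins and their kinase differed in tissue order. Ccnd2 stood at 237 CPM in KO fat against 5.91 CPM in KO liver, and Cdk6 at 12.0 CPM in KO fat against 60.2 CPM in KO liver. Ccnd1 was called higher in fat in KO libraries (0.81 ± 0.16, adjusted p 0.00116, edgeR) and not in WT libraries (0.09 ± 0.24, adjusted p 0.743, edgeR). The gap between these is the same contrast as the difference of genotype effects above, which was called for no target. E2f3 was likewise called higher in fat (not with the GC and length trend removed), and Smurf2 and Rictor lower, in KO libraries alone, the last 2 with the opposite sign under library totals alone. Rps6kb1 was called higher in fat and Cpeb2 lower in WT libraries alone. Their signs were opposite with the GC and length trend removed for Rps6kb1 and with library totals alone for Cpeb2. Vegfa, Smad7, Lrp6, Hmga1, Pura, Map2k1, Cdc25a, Ccne1 and Siah1a were called in neither, nor was Chek1, tested in WT alone.

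**Figure D5:**
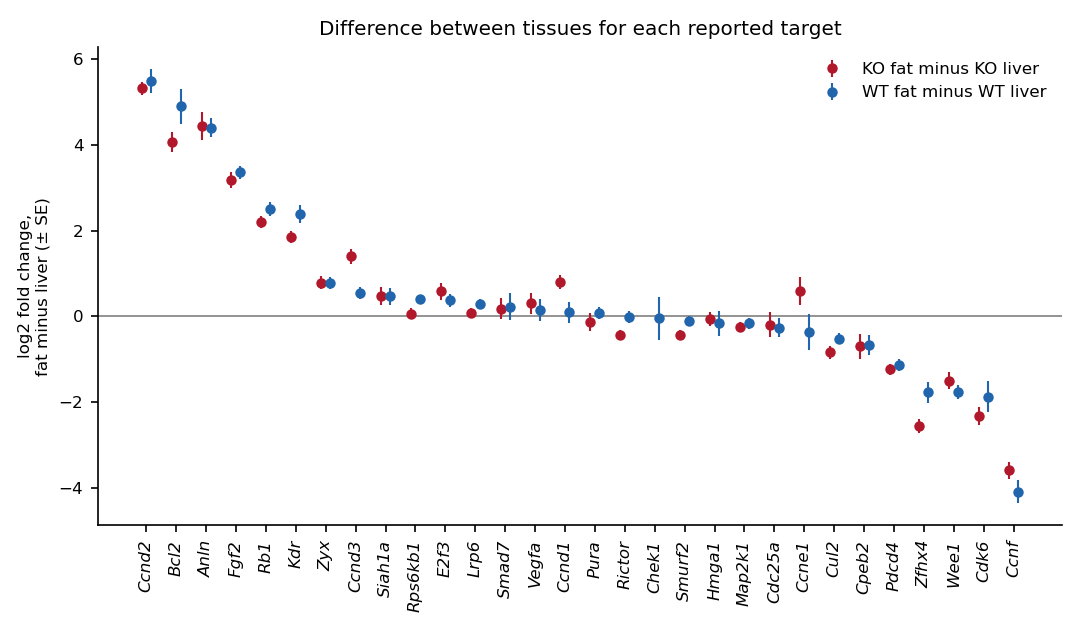
Log2 difference between fat and liver of each target with its standard error (edgeR), in KO libraries (red) and WT libraries (blue), ordered by the WT value. The order runs from Ccnd2, 5.49 in WT, to Ccnf, -4.10 in WT, and the red and blue points lie close together for most genes.

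Other genes of the same pathway were read from lists. Of 33 other G1/S genes, 32 were tested in fat with 16 above and 16 below 0, and 28 in liver with 12 above and 16 below. None was called, and 3 in fat and 1 in liver had an unadjusted p under 0.05 (edgeR). Those 3 in fat were Cdkn2c, E2f7 and Cdkn2b, and the 1 in liver was E2f7. Cdkn2c (p18, an inhibitor of CDK4 and CDK6) averaged 101 CPM in KO fat and 62.7 CPM in WT fat, with a log2 fold change of 0.70 ± 0.21 and an adjusted p of 0.649 (edgeR), and 4.51 CPM in KO livers and 2.94 CPM in WT livers, with 0.61 ± 0.33. E2f7, a repressor of the E2F family, averaged 3.12 CPM in KO fat and 5.28 CPM in WT fat, with -0.75 ± 0.27, and 2.397 CPM in KO livers and 1.201 CPM in WT livers, with 0.98 ± 0.45. Of 19 other reported targets of the family, 17 were tested in each tissue, with 4 above and 13 below 0 in fat (median -0.12) and 12 above and 5 below in liver (median 0.13). None was called, and 1 in fat and 3 in liver had an unadjusted p under 0.05 (edgeR). Among them Bmi1, a Polycomb protein, averaged 37.0 CPM in KO livers and 27.7 CPM in WT livers, with 0.40 ± 0.13 and an adjusted p of 0.279 (edgeR).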

How the data were processed

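Total RNA of liver and inguinal white fat went into a directional library kit, per the labels' protocols. The deposited table holds whole-number read counts per Ensembl gene, 1 column per library, and the values show no normalisation by the authors. Per the submitters' processing notes, CASAVA 1.8 and HISAT2 were used with the builds GRCm38 and mm10. Not given in the sources used here are the program that counted reads, whether it used strand, and the gene annotation. Genes with close copies (Siah1a, Hmga1) may have lost or shared reads, and without the strand setting reads of overlapping antisense genes cannot be told apart.

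From the counts, each tissue was fitted in R 4.3.3 with edgeR 4.0.16 (TMM, filterByExpr, robust quasi-likelihood F test, Benjamini-Hochberg threshold 0.05). All adjusted p-values are from it unless DESeq2 1.42.0 is named. The difference of genotype effects was tested over 12 libraries, and fat against liver within each genotype. Levels (CPM) were scaled with TMM factors over all 12 libraries. Standard errors were derived from the F statistic. Gene lengths, also deposited, were used to set levels of different genes side by side. The trend on GC share and transcript length was removed by lowess (span 0.3). The steps were run on simulated counts with planted changes and without a GC trend. This was a check of the steps and not of their power in these data. Libraries of a group differed beyond the noise of counting (chi-square over its degrees of freedom 9.01 to 69.7), so none was a copy of another's counts. This does not show that they came from separate animals. 54409 of 54532 genes were found in GENCODE M21. Alternatives were other scalings and filters, DESeq2, 1 fit of all groups, a replicate block, the GC and length step and leaving out each library. The targets and lists were chosen with earlier results of these data known. All targets are named. Of each list at most 3 genes with the smallest p are named where none was called. Some of these are not reported here.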

Additional observations from a re-analysis of the deposited data

How the results depend on the processing

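Ccnd1 in liver was the one target called within a tissue by any alternative tried. Called targets in liver numbered 0 as reported, 1 at an adjusted p under 0.1, 1 with no filter on low counts and 1 with DESeq2, and 0 to 1 with a library left out (1 without WT liver library 3). At an unadjusted p under 0.05 they numbered 2 as reported, 1 with the GC and length trend removed, 1 in 1 fit of all 4 groups, 1 with the replicate block and the trend removed together, and 2 to 4 with a library left out. In fat called targets numbered 0 under every alternative, and those at an unadjusted p under 0.05 numbered 2 to 4 with a library left out, 2 without KO fat library 3 or WT fat library 1. For the difference of effects the count at an unadjusted p under 0.05 was 7 as reported, 1 with the trend removed and 2 to 6 with a library left out. The share of all genes tested at that level was 13.4% as reported and 6.79% with the trend removed. Targets called between tissues numbered 17 to 20 in KO and 15 to 19 in WT with a library left out. Of all genes tested, 10206 to 10964 were called in KO and 10402 to 11451 in WT in those fits.

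Over all genes, calls in liver numbered 21 as reported, 139 with DESeq2 and 378 with no filter, 4 with the trend removed and 1 in 1 fit of all 4 groups. In fat they numbered 0 as reported, 43 with DESeq2 and 29 with no filter, and for the difference 0 as reported, 199 with DESeq2 and 21 with no filter. The cause was not tested.

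With the trend removed the sign differed for 6 of 31 targets in fat, 4 of 29 in liver, 10 of 31 for the difference, 4 of 29 between tissues in KO and 7 of 30 in WT. Where either fit had an unadjusted p under 0.05 the turned values were as follows. With the trend removed, Rps6kb1 had 0.0011 in fat and 0.10 for the difference. Between tissues the trend removal gave -0.53 for Smad7 and -0.36 for Lrp6 in KO, and -0.023 for E2f3, -0.38 for Lrp6, -0.20 for Rps6kb1 and -0.49 for Pura in WT. Library totals alone, chosen after seeing the data, gave 0.40 for Smurf2, 0.58 for Map2k1, 0.40 for Rictor, 0.78 for Hmga1, 0.14 for Cpeb2 and 0.69 for Pura in KO. They gave 0.56 for Cdc25a, 0.72 for Smurf2, 0.30 for Cul2, 0.66 for Map2k1, 0.82 for Rictor and 0.16 for Cpeb2 in WT. That setting leaves in the unequal TMM factors of the tissues.

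A miR-322 match was in 24 targets as reported, in 15 as an 8mer and in 15 with the shortest 3′ UTR, among them Zyx, which had none in the longest. A miR-503 match was in 5 as reported and 3 with the shortest 3′ UTR, and a miR-351 match in 7 as reported, 1 as an 8mer and 4 with the shortest 3′ UTR.

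Replicate numbers gave no clear pairing of the libraries, with correlations of deviations between same-numbered libraries from -0.0666 to 0.16. Between KO and WT fat these were 0.0608, 0.16 and 0.0659, against -0.2 to 0.0753 for other pairs. There 2 of 3 KO fat libraries correlated best with the WT fat library of the same number. What libraries of the same number share is not stated. With the replicate block called targets numbered 0 in fat, 0 in liver and 0 for the difference. Between tissues they numbered 19 in KO and 16 in WT, where 10333 and 10769 of all genes tested were called. With 3 libraries a group and low counts, effects on Chek1, Plag1, Hmga2 and liver Bcl2 and Anln could not be resolved. Intervals of the log2 fold change (edgeR) were also wide for some targets with more counts. In fat they ran from -1.10 to 0.63 for Cdk6, -1.27 to 0.58 for Smad7 and -0.80 to 0.85 for Vegfa. In liver the interval ran from -0.74 to 1.09 for Cpeb2, against -0.18 to 0.22 for Lrp6. For targets with wide intervals, the lack of a call does not show that the level was unchanged.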
